A study of Mustela putorius furo and Mus musculus with 4 samples.

Results

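The insulin-like growth factor (IGF) genes were compared between cultured ferret and mouse astrocytes. A set of 10 genes was taken by symbol, without regard to case: the ligand genes Igf1 and Igf2, the receptor genes Igf1r, Igf2r and Insr, and the binding-protein genes Igfbp2, Igfbp3, Igfbp4, Igfbp5 and Igfbp7. Values in both species were found for 9 of these 10 genes, out of 13373 symbols shared by the species, and each gene had a single value per library. Igfbp3 was measured in the mouse libraries, and its level in ferret astrocytes was not analysed here. The ferret group held 2 libraries of primary cortical astrocytes from ferrets at postnatal day 1, and the mouse group held 2 libraries of the same cell type from wild-type ICR mice at postnatal day 1 to 3. Both were grown as mixed glia in serum for 14 days, shaken, replated and moved to a serum-free medium before RNA was harvested. The supplements that the study lists for this medium include heparin-binding EGF-like growth factor and transferrin, and name no insulin or IGF. Cells of several mouse pups were pooled in a flask, whereas a single ferret pup filled several flasks. The libraries were made in duplicate, and separate cultures are not stated, so the p-values measure the spread between these libraries, which may be technical.

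IGF-I and IGF-II are small secreted hormones related to insulin. They act mainly through the tyrosine kinase receptor encoded by Igf1r, while insulin acts mainly through the related receptor encoded by Insr. The receptor encoded by Igf2r, which is also the cation-independent mannose 6-phosphate receptor, carries IGF-II to lysosomes and has no kinase. Secreted binding proteins hold most IGF outside cells and can limit or prolong its action. In the brain, IGFs act on the growth and survival of neural and glial cells, and astrocytes, microglia and the meninges are known sources of ligands or binding proteins.

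Gene levels are given as FPKM, fragments counted per kilobase of transcript and scaled to the mapped total, as computed by the authors on the annotation of each species. Species were compared with limma on log2(FPKM + 1), where differences of low genes are understated. A gene was called where the Benjamini-Hochberg adjusted p was under 0.05 and the absolute log2 difference was above 1. Of the 10204 genes tested, 43.2% were called, with 13.1% higher and 30.1% lower in ferret astrocytes, so that 30.3% of the called genes were higher. The median log2 difference of all genes was -0.35, and quantile normalization brought it to 0.08 and set the share of called genes that were higher to 50.2%. The labelled cell type was checked with 11 astrocyte markers, whose summed level was 3620 and 3720 FPKM in the ferret duplicates against 3312 and 3585 in the mouse duplicates. Most of each sum came from Gfap and Aldoc, which were not called. Of the other markers, 6 were called lower in ferret astrocytes, among them Slc1a2, a glutamate transporter gene, at 0.133 and 0.178 FPKM there, and S100b was called higher (log2 difference 2.01). Read counts were not used here. The lowest FPKM gave only the relative depth of duplicates, which was 1.17 for ferret replicate 1 against replicate 2 and 0.835 for the mouse pair. Species, genome annotation and culture cannot be told apart in this design.

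Of the 9 genes, 8 were called, beside 43.2% of all genes tested. Igf1r and Igfbp7 were higher in ferret astrocytes, whereas Igf1, Igf2, Insr, Igfbp2, Igfbp4 and Igfbp5 were lower. Igf2r had an adjusted p under 0.05, as had 88.6% of all genes tested, and did not pass the limit on the log2 difference. All 9 genes passed the filter of a mean FPKM of at least 1 in either species. Igf1 and Igf2 passed it through the mouse libraries alone. The FPKM ranges of the species did not overlap for any of the 9 genes, which was also true of 94.1% of all genes tested and is therefore a common pattern in this comparison. The median log2 difference of the 9 genes was -2.03.

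**Figure D1:**
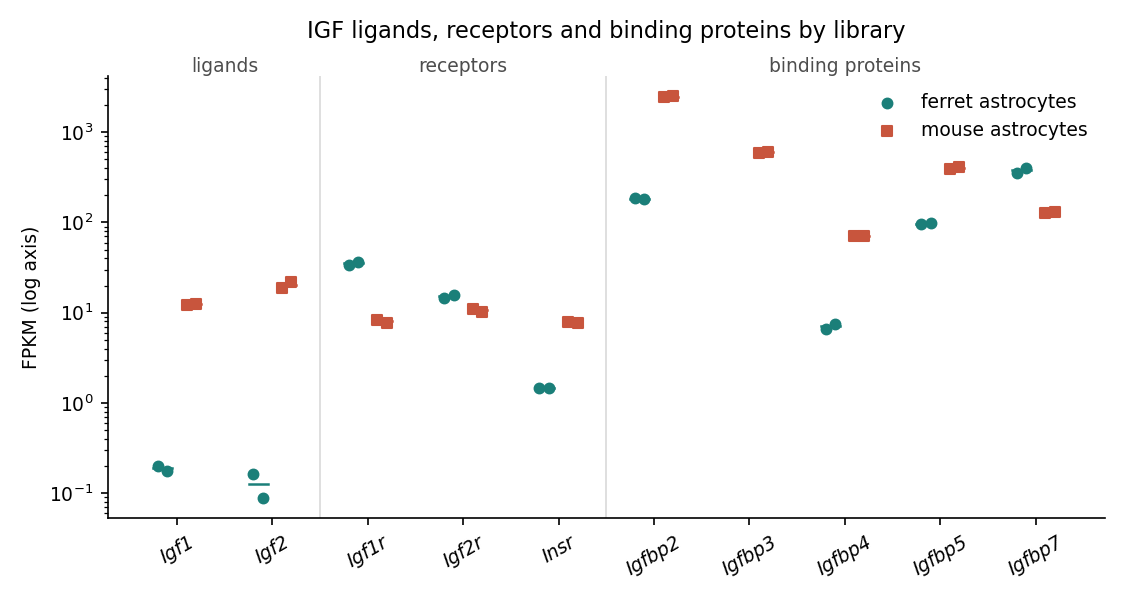
FPKM (log axis) of the 10 genes in each of the 2 ferret and 2 mouse libraries, where points are libraries and short lines are means. Igf1 and Igf2 lie below 1 FPKM in ferret astrocytes, Igf1r and Igfbp7 lie higher in ferret astrocytes, and Igfbp3 has mouse points only.

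Both ligand genes were under 1 FPKM in ferret astrocytes and above 10 FPKM in mouse astrocytes. Igf1, which encodes IGF-I, had 0.202 and 0.178 FPKM in the ferret duplicates against 12.3 and 12.6 FPKM in the mouse libraries. Both ferret libraries lay far below both mouse libraries, and the duplicates of each species lay close together. The log2 difference of Igf1 was -3.50 (SE 0.075 by limma, adjusted p = 1.17e-10). The gene ranked at positions 10438 and 10492 among the shared symbols in the ferret duplicates but at 4814 and 4755 in the mouse libraries. Igf2, which encodes IGF-II and is an imprinted gene expressed from the paternal copy in most mouse tissues, had 0.162 and 0.0876 FPKM in ferret and 18.9 and 21.9 FPKM in mouse astrocytes. The ferret duplicates of Igf2 differed most from each other, relative to their level, among the genes of the set with ferret values. Both stayed under 0.2 FPKM. Its log2 difference was -4.25 (SE 0.089 by limma, adjusted p = 1.08e-10). With a pseudocount of 0.1 in place of 1 the log2 differences became -5.44 for Igf1 and -6.53 for Igf2. The size of both differences therefore depends on the scale, while the direction did not. The values carry no counting interval.

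In GRCm38, mouse Igf1 lies on chromosome 10 (87858265 to 87937042, plus strand), and Igf2 lies on chromosome 7 (142650766 to 142666816, minus strand). GENCODE places the antisense gene Igf1os over one end of Igf1 and the antisense gene Igf2os over Igf2. The mouse libraries had 0.105 and 0.154 FPKM of Igf1os and 0.13 and 0.0733 FPKM of Igf2os. Gm49394, a protein-coding gene model that overlaps Igf2 on the same strand, had at most 0.0274 FPKM. Ins2, an insulin gene, lies next to Igf2 with no other protein-coding gene between them. The FPKM listed for the overlapping genes were thus low against the 12.3 to 21.9 FPKM of the ligand genes. Use of the strand in the quantification is not stated in the sources used here, and Gm49394 shares the strand of Igf2. Reads of the overlapping genes may therefore not be separated from those of the ligand genes.

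Microglial and meningeal fibroblast markers differed in the same direction as the ligands, and this direction was not particular to them. Called lower in ferret were 2 of 2 endothelial, 2 of 4 mural and 6 of 11 astrocyte markers, beside 30.1% of all genes tested. In the mural and astrocyte lists, 1 marker each was called higher. Cdh5, Tek and Slc1a2 passed the filter on low values through the mouse libraries alone. Of the oligodendrocyte lineage and neuron markers tested, 3 of 9 and 4 of 4 were called higher in ferret astrocytes and none lower. Over all genes tested, 13.1% were called higher. The log2 difference was negative for 3 of the 9 oligodendrocyte lineage markers. Sox10, Dcx, Nefl and Gad1 passed the filter on low values through the ferret libraries alone. Olig1, at 107 and 117 FPKM in the mouse libraries, and Stmn2, at 124 and 127 FPKM, were not tested. All 15 microglial markers tested were called lower in ferret astrocytes, beside 30.1% of all genes tested. Their summed level was 11.6 and 10.9 FPKM in the ferret duplicates against 871 and 843 FPKM in the mouse duplicates. Of the microglial markers with values in both species, 12 had a ferret mean under 1 FPKM, and Cx3cr1 is listed at 0 in both ferret libraries. These 12 passed the filter on low values through the mouse libraries alone. All 10 meningeal fibroblast markers tested were called lower as well, with sums of 124 and 109 FPKM in ferret and 1792 and 1771 FPKM in mouse libraries. Lum, Mgp, Serpinf1, Pcolce and Foxc1 of that list passed the filter through the mouse libraries alone. Mgp is listed at 0 in both ferret libraries, whereas Col1a2 stood at 84.6 and 74.6 FPKM there. The part of these cells in the ligand levels was not tested. In RNA from whole cultures, fewer cells of a type and less RNA per cell cannot be told apart. The study also counted cell types by immunostaining, in cultures kept in serum rather than in the serum-free medium of these libraries. It reported nearly all cells as astrocytes in both species, a larger share of microglia in mouse, and neurons in ferret alone. No fibroblast marker was among its stains.

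**Figure D2:**
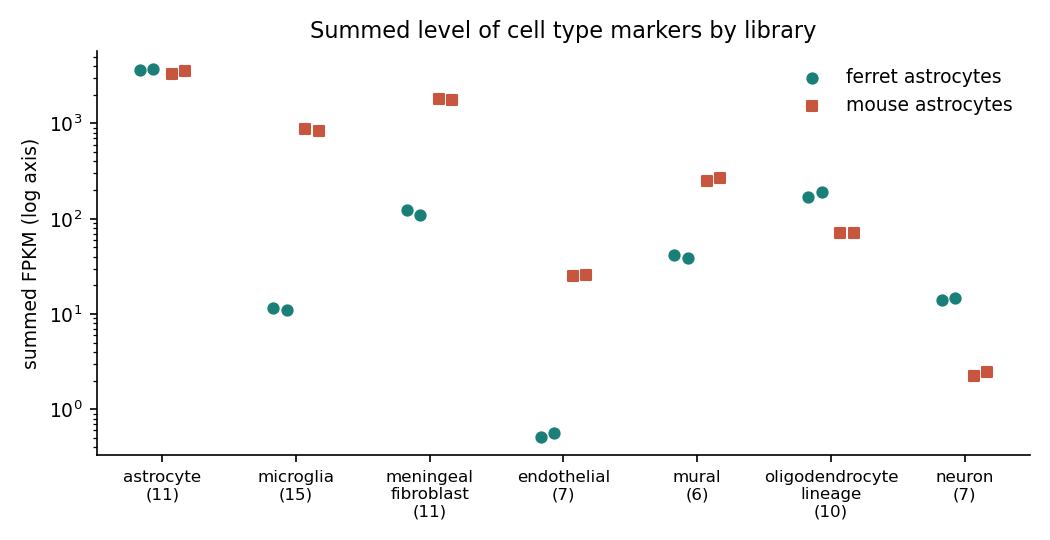
Summed FPKM (log axis) of 7 lists of cell type markers in each library, with the number of markers that have values in both species in brackets. Microglial, meningeal fibroblast, endothelial and mural sums are lower in both ferret libraries, whereas oligodendrocyte lineage and neuron sums are higher. Markers with mouse values only are left out of the sums, so these directions hold for the plotted markers alone. Among those left out are Olig1, at 107 and 117 FPKM in the mouse libraries, and Stmn2, at 124 and 127 FPKM.

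The receptors moved in different directions. Igf1r, whose product is a signalling receptor for both IGFs, had 34.2 and 36.1 FPKM in the ferret duplicates against 8.39 and 7.63 FPKM in the mouse libraries. Its mean was 35.2 ± 1.29 FPKM (SD, n = 2) in ferret cells and 8.01 ± 0.539 FPKM (SD, n = 2) in mouse astrocytes, which is 4.39-fold higher in ferret. The log2 difference was 2.01 (SE 0.070 by limma, adjusted p = 2.35e-09), well beyond the spread of the duplicates. Among the shared symbols Igf1r ranked at positions 1391 and 1356 in the ferret duplicates but at 5995 and 6311 in the mouse libraries.

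Insr, which encodes the insulin receptor, differed the other way. It had 1.45 and 1.46 FPKM in the ferret duplicates against 7.88 and 7.74 FPKM in the mouse libraries, a mean that was 5.36-fold higher in mouse astrocytes. The log2 difference of Insr was -1.84 (SE 0.073 by limma, adjusted p = 6.04e-09). After quantile normalization it was -1.43 and the gene was still called.

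Igf2r had 14.6 and 15.9 FPKM in the ferret duplicates against 10.9 and 10.3 FPKM in the mouse libraries. The ferret pair lay above the mouse pair, by a log2 difference of 0.49 (95% confidence interval 0.33 to 0.65, adjusted p = 1.06e-04 by limma). This was under the limit of 1 for a call, and also under it in the 12 fits that were run, in which it ranged from 0.43 to 0.90. M6pr, the gene of the other mannose 6-phosphate receptor, which does not bind IGF-II, had 66.4 and 66.9 FPKM in ferret and 74.2 FPKM in each mouse library. Its log2 difference of -0.15 turned to 0.23 after rescaling to equal library sums, so no direction can be given for M6pr.

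Mouse Igf1r lies on chromosome 7 (67952827 to 68233668, plus strand), Insr on chromosome 8 (3122061 to 3279617, minus strand), and Igf2r on chromosome 17 (12682406 to 12769664, minus strand). The antisense gene Airn, a long noncoding RNA known for the imprinting of Igf2r, overlaps the latter on the opposite strand and had 6.48 and 6.21 FPKM in the mouse libraries. The library kit keeps the strand of the RNA, but use of the strand in the quantification is not stated in the sources used here. Reads of Igf2r and Airn may therefore not be separated in the mouse values.

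Ratios of FPKM taken within a library do not depend on the scaling between species, although they still depend on the gene models of each species. The FPKM of Igf1r was 23.6 and 24.6 times that of Insr in the ferret libraries, and 1.06 and 0.985 times that of Insr in the mouse libraries. The receptor genes were thus at almost the same level in mouse astrocytes and far apart in ferret astrocytes. Against Igf2r, the FPKM of Igf1r was 2.35 and 2.27 times as high in the ferret pair and 0.772 and 0.742 times as high in the mouse libraries. Of the summed FPKM of the 3 receptor genes, Igf1r took 68.1% and 67.5% in ferret and 30.9% and 29.7% in mouse astrocytes, while Insr took 2.88% and 2.74% against 29.0% and 30.2%. On the log2(FPKM + 1) scale, the ratio of Igf1r to Insr was higher in ferret astrocytes by 3.85 and that of Igf1r to Igf2r by 1.52. The added 1 makes these log2 ratios depend on the scale of the values. For each of the 4 ratios that were computed, an exact two-sided permutation test of 2 libraries against 2 gave p = 0.333, which is the smallest value this design allows.

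**Figure D3:**
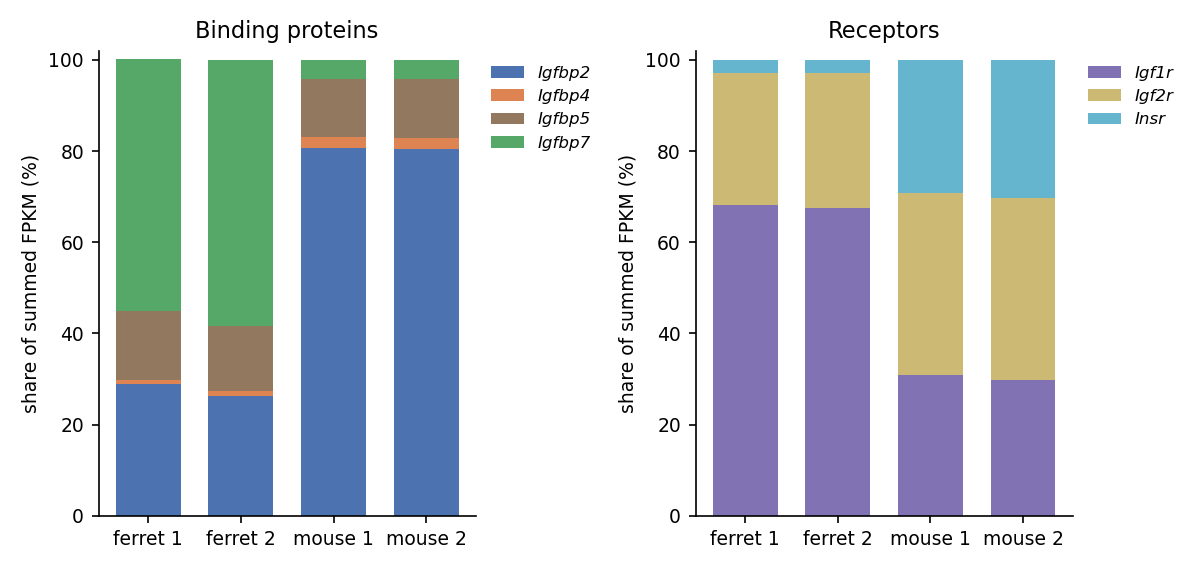
Shares (%) of the summed FPKM within each library for the 4 binding-protein genes with values in both species (left) and the 3 receptor genes (right). Igfbp7 takes 55.3% and 58.4% of the binding-protein sum in the ferret libraries, and Igfbp2 takes 80.6% and 80.5% in the mouse libraries.

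Igfbp2, Igfbp5 and Igfbp7 had higher FPKM than the ligand and receptor genes in both species. Of the 4 binding-protein genes with values in both species, 3 were called lower in ferret astrocytes, beside 30.1% of all genes tested. Igfbp2, whose product is a main IGF-binding protein of the developing brain, had 187 and 180 FPKM in the ferret duplicates against 2430 and 2531 FPKM in the mouse duplicates. It ranked at position 4 of the 13373 shared symbols in both mouse libraries, and at 136 and 152 in the ferret libraries. The mean was 183 ± 4.33 FPKM (SD, n = 2) in ferret cells and 2481 ± 71.4 FPKM (SD, n = 2) in mouse astrocytes, which is 13.5-fold higher in mouse. The log2 difference of Igfbp2 was -3.75 (SE 0.062 by limma, adjusted p = 3.32e-11). Igfbp2 was therefore abundant in both species and much more so in mouse astrocytes.

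Igfbp5, whose product also binds extracellular matrix, had 97.1 and 97.5 FPKM in the ferret duplicates against 389 and 410 FPKM in the mouse duplicates. Its log2 difference was -2.03 (SE 0.058 by limma, adjusted p = 6.77e-10). Mouse Igfbp2 lies on chromosome 1 (72824503 to 72852474, plus strand) and Igfbp5 (72857932 to 72874884, minus strand). The adjacent genes face each other with 5457 bases and no other protein-coding gene between them. Both were lower in ferret astrocytes, Igfbp2 by the wider margin.

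Igfbp4, whose product inhibits IGF until it is cleaved by the protease pappalysin 1, had 6.54 and 7.53 FPKM in the ferret duplicates against 71.6 and 70.6 FPKM in the mouse libraries. The mean was 10.1-fold higher in mouse astrocytes, with a log2 difference of -3.17 (SE 0.072 by limma, adjusted p = 1.71e-10). Its rank moved from 5755 and 5377 in the ferret libraries to 768 and 806 in the mouse libraries. The mouse gene lies on chromosome 11 (99041244 to 99054392, plus strand).

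Igfbp7, whose product binds IGFs with low affinity and is deposited in the matrix of vessels, went against Igfbp2, Igfbp4 and Igfbp5. It had 358 and 401 FPKM in the ferret duplicates against 126 and 132 FPKM in the mouse duplicates. The mean was 380 ± 30.3 FPKM (SD, n = 2) in ferret cells and 129 ± 4.06 FPKM (SD, n = 2) in mouse astrocytes, which is 2.95-fold higher in ferret. The log2 difference was 1.55 (SE 0.069 by limma, adjusted p = 1.31e-08). Among the genes of the set with ferret values, Igfbp7 was the most abundant in ferret astrocytes, at ranks 64 and 58 of the shared symbols. The summed level of endothelial markers was 0.512 and 0.558 FPKM in the ferret pair, where Pecam1, Cdh5 and Tek are listed at 0. They summed to 25.1 and 25.5 FPKM in the mouse libraries, mostly through Cdh5. Mural markers summed to 42.1 and 38.8 FPKM in the ferret pair, against 252 and 268 FPKM in the mouse pair, where Acta2 had 221 and 238 FPKM. Of the 4 mural markers tested, 2 were called lower in ferret astrocytes and Kcnj8 was called higher. Over all genes tested, 30.1% were called lower and 13.1% higher. Kcnj8 had 11.7 and 11.3 FPKM against 0.0139 and 0.0232 FPKM and passed the filter on low values through the ferret libraries alone. The part of vascular cells in the Igfbp7 level was not tested. Mouse Igfbp7 lies on chromosome 5 (77349240 to 77408041, minus strand), and its end overlaps that of Polr2b on the opposite strand, which had 34.8 and 31.7 FPKM in the mouse libraries.

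Igfbp3, which encodes the main IGF carrier of blood plasma, had 591 and 611 FPKM in the mouse libraries (601 ± 13.7, SD, n = 2). It was second to Igfbp2 among the 10 genes in mouse astrocytes. The mouse gene lies on chromosome 11 (7206086 to 7213923, minus strand), next to Igfbp1. RefSeq lists an IGFBP3 gene for the ferret on the assembly ASM1176430v1.1, which is another assembly than the one the authors used. No species difference is given for Igfbp3.

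Summed over Igfbp2, Igfbp4, Igfbp5 and Igfbp7, the binding-protein level was 649 and 687 FPKM in the ferret duplicates against 3017 and 3143 FPKM in the mouse duplicates, a mean that was 4.61-fold higher in mouse astrocytes. With Igfbp3 the mouse sums were 3608 and 3754 FPKM. Igfbp2 made up 27.5 ± 1.76% (SD, n = 2) of the 4-gene sum in ferret cells and 80.5 ± 0.0238% (SD, n = 2) in mouse astrocytes. Igfbp7 made up 56.8 ± 2.25% (SD, n = 2) and 4.18 ± 0.0102% (SD, n = 2). The share of Igfbp5 was 15% and 14.2% in the ferret pair and 12.9% and 13.0% in the mouse libraries, and that of Igfbp4 stayed under 3% in each library. Within this 4-gene sum the shares of Igfbp2 and Igfbp7 differed most, by -53.0 and 52.7 percentage points. With Igfbp3 counted in the mouse libraries, where it took 16.3%, the mouse shares were 67.4% for Igfbp2, 10.9% for Igfbp5 and 3.5% for Igfbp7, and the matching ferret shares were not analysed here. For each of the 4 shares an exact two-sided permutation test gave p = 0.333, again the smallest possible value. Meningeal fibroblast markers, whose sums are given above, moved in the same direction as Igfbp2, Igfbp4 and Igfbp5, and their part in these levels was not tested.

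**Figure D4:**
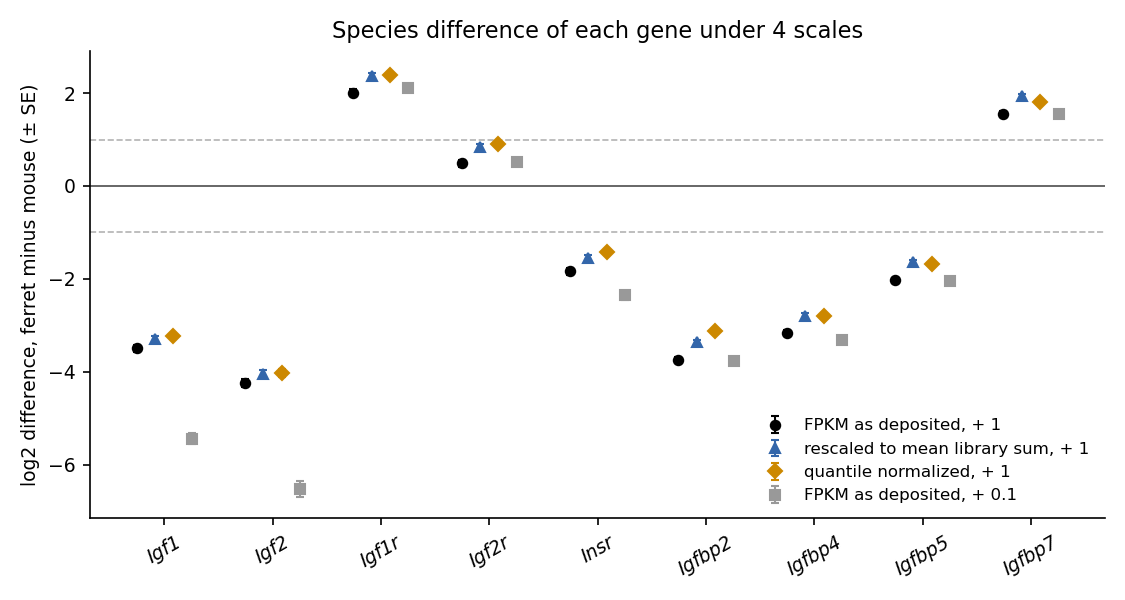
Log2 difference (ferret minus mouse, ± standard error of limma) of the 9 genes with values in both species, under 3 scalings with a pseudocount of 1 and with a pseudocount of 0.1. Dashed lines mark the limits of -1 and 1 for a call, and Igf2r lies between them on each scale.

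The ligands were low against the binding proteins in both species. The summed FPKM of the 4 binding-protein genes was 96.6 and 91.0 times that of Igf1 and Igf2 in the mouse libraries, and 1781 and 2586 times in the ferret libraries. The summed ligand level was 31.2 and 34.5 FPKM in mouse and 0.364 and 0.266 FPKM in ferret astrocytes, whereas the summed receptor level was 27.1 and 25.6 FPKM in mouse and 50.3 and 53.4 FPKM in ferret astrocytes. Ligands and receptors were therefore at close in summed FPKM in mouse astrocytes, where the ligand sum was the higher in both libraries, and far apart in ferret astrocytes.

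The order of the genes by FPKM also differed. In ferret astrocytes, where Igfbp3 was not analysed here, it ran from Igfbp7 through Igfbp2, Igfbp5, Igf1r, Igf2r, Igfbp4, Insr and Igf1 to Igf2. In mouse astrocytes it ran from Igfbp2 through Igfbp3, Igfbp5, Igfbp7, Igfbp4, Igf2, Igf1, Igf2r and Igf1r to Insr. Neighbours in the ferret order did not overlap in the FPKM of their libraries. In the mouse order, only Igf1r and Insr overlapped, and the next closest neighbours were Igf1 and Igf2r, with a ratio of means of 1.18. FPKM are per length, and a gene model that is too short or too long would shift a gene in this order.

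Of 40 further genes of the pathway, 34 had values in both species and 30 were tested. Among these, 6 were called higher and 7 lower in ferret astrocytes, and the median log2 difference was -0.11. The share called was close to the 43.2% of all genes tested. Of these calls, Pappa and Grb14 passed the filter on low values through the mouse libraries alone, and Stc1 and Igfals through the ferret libraries alone. Of the 12 adaptor and kinase genes tested, 11 were not called, with log2 differences between -0.86 and 0.97, while 4 of the 6 negative regulators and both tested genes of the Igf2 mRNA-binding proteins were called.

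Further binding partners of IGFs were called in opposite directions. Igfbp6, whose product prefers IGF-II, had 3.05 and 2.89 FPKM in ferret and 59.9 and 60.3 FPKM in mouse astrocytes, a log2 difference of -3.94 (limma, adjusted p = 2.98e-11). Igfals, which encodes the acid-labile subunit that joins IGF and its binding protein in a larger complex, had 1.72 and 2.09 FPKM in ferret and 0.0785 and 0.0426 FPKM in mouse astrocytes, a log2 difference of 1.45. Insrr, the gene of an orphan receptor of the family, stayed under 0.02 FPKM in the 4 libraries. Igfbp1 is listed at 0 in both mouse libraries and had 0.0636 and 0.0248 FPKM in the ferret libraries. Igfbpl1 had 8.99 and 8.58 FPKM in mouse astrocytes, and its ferret level was not analysed here.

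Among proteases and their inhibitors, Pappa and Adamts1 were called lower and Stc1 higher in ferret astrocytes. Pappa, which encodes pappalysin 1, had 0.051 and 0.0374 FPKM in ferret and 2.33 and 2.29 FPKM in mouse astrocytes, and was called lower with a log2 difference of -1.66. Its paralog Pappa2 was not tested because of its low values, which were 0.00647 and 0.00379 FPKM in ferret and 0.742 and 0.838 FPKM in mouse astrocytes. Stc1, which encodes stanniocalcin 1, an inhibitor of pappalysin, was called higher, with 6.06 and 5.81 FPKM in ferret and 0.255 and 0.250 FPKM in mouse astrocytes (log2 difference 2.47). Stc2, of the same family, had 1.40 and 1.60 FPKM in ferret and 0.306 and 0.397 FPKM in mouse astrocytes, and its log2 difference of 0.89 passed the limit only after rescaling, quantile normalization or with the smaller pseudocount. Adamts1, which encodes a secreted metalloprotease, was called lower, with 9.39 and 8.81 FPKM against 40.5 and 40.3 FPKM (log2 difference -2.04). Htra1, which encodes a secreted serine protease that can cleave IGF-binding protein 5, stood at 90.7 and 93.4 FPKM against 180 and 190 FPKM. It lay at the limit, with a log2 difference that was not called as deposited and that was called with the pseudocount of 0.1, without ferret astrocytes replicate 2 (-1.03) and without mouse astrocytes replicate 1 (-1.04).

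Igf2bp2 and Igf2bp3, whose products bind the mRNA of Igf2 and other genes, were called higher in ferret astrocytes. Igf2bp2 had 12.5 and 12.7 FPKM in ferret and 4.51 and 4.53 FPKM in mouse astrocytes, and Igf2bp3 had 8.31 and 7.68 against 2.72 and 2.59 FPKM. Both log2 differences were 1.30. Igf2bp1 did not reach the filter, at 0.373 and 0.257 FPKM in ferret and 0.480 and 0.522 FPKM in mouse astrocytes.

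Downstream of the receptors, the adaptor and kinase genes held a single call with FPKM as deposited. Shc1, which couples receptor kinases to Ras, had 100 and 112 FPKM in ferret and 40.4 and 40.2 FPKM in mouse astrocytes, a log2 difference of 1.37. Pik3cb, named after its values were seen, had a log2 difference of 0.97 and was called after rescaling (1.32), after quantile normalization (1.36), with the smaller pseudocount and without ferret astrocytes replicate 2. Irs1, named in the same way, encodes a main substrate of both receptor kinases and had 6.92 and 7.27 FPKM in ferret and 7.67 and 7.28 FPKM in mouse astrocytes. Its log2 difference of -0.07 turned to 0.28 after rescaling, so no direction is given.

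Among the negative regulators, Grb10 and Grb14, whose adaptor proteins bind and inhibit the insulin and IGF receptor kinases, were called lower in ferret astrocytes. Grb10 had 5.64 and 6.32 FPKM in ferret and 65.2 and 63.1 FPKM in mouse astrocytes (log2 difference -3.22). Grb14 had 0.321 and 0.188 FPKM in ferret and 17.8 and 17.1 FPKM in mouse astrocytes (log2 difference -3.88). Inppl1, which encodes the lipid phosphatase SHIP2, was also called lower, with 20.5 and 22.8 against 56.2 FPKM in each mouse library (log2 difference -1.34), and Socs2, a suppressor of growth hormone signalling, was called higher, with 11.4 and 10.8 against 3.73 and 3.74 FPKM (log2 difference 1.35). Among the transcription factors, Foxo4 was called lower, with 2.43 and 2.40 FPKM against 6.91 and 7.22 FPKM (log2 difference -1.24). The calls of Inppl1 and Foxo4 were lost after rescaling (-0.96 and -0.93) and after quantile normalization (-0.96 and -0.82). Calls of the other 11 genes were kept under both.

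**Figure D5:**
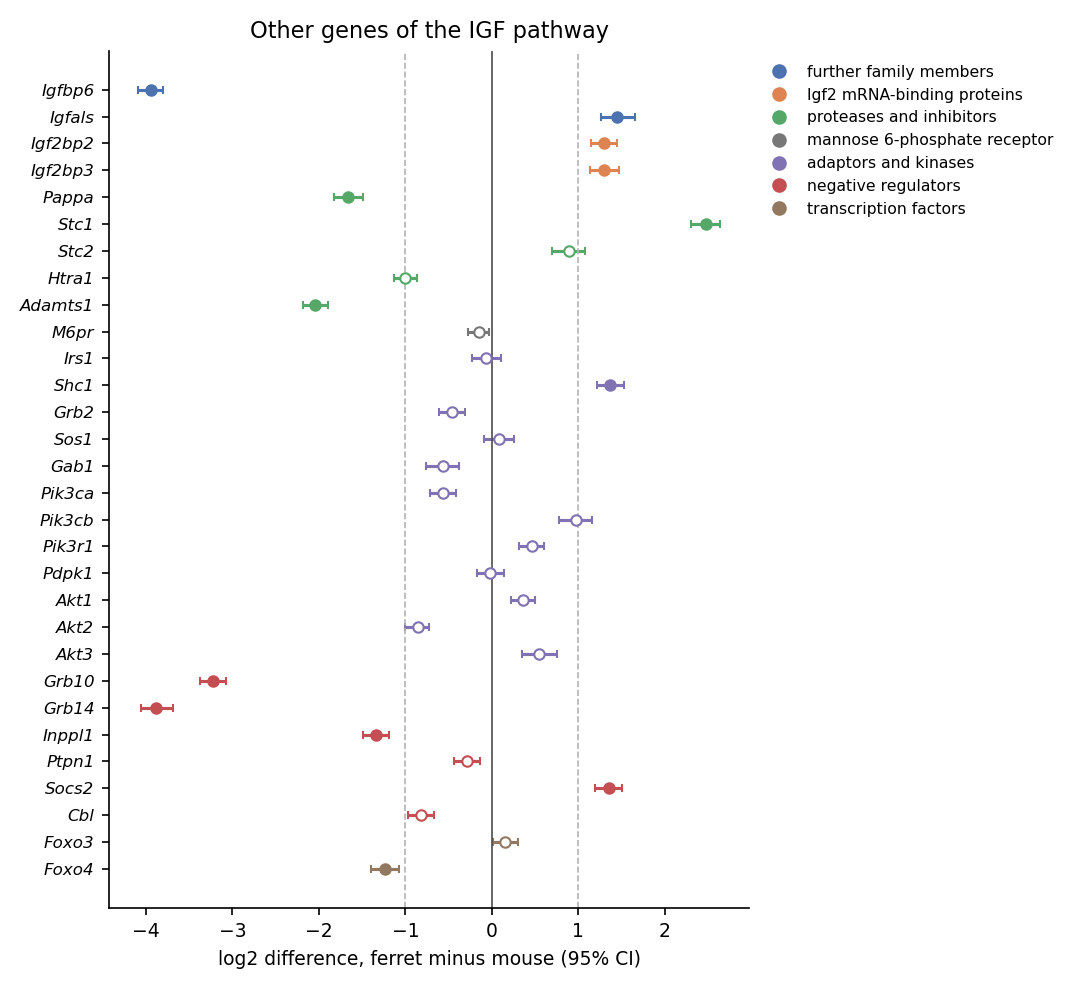
Log2 difference (ferret minus mouse, with the 95% confidence interval of limma) of the 30 tested genes of the IGF pathway outside the ligand, receptor and binding-protein genes above, coloured by role. Filled points were called, open points were not, and dashed lines mark -1 and 1; the adaptor and kinase genes lie between -0.86 and 0.97 except Shc1, which lies at 1.37.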

How the data were processed

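RNA-seq libraries were analysed, 2 of ferret and 2 of mouse astrocytes. The authors aligned reads with STAR 2.7.0f to the ferret genome MusPutFur1.0 or the mouse genome GRCm38, and deposited FPKM per gene from Cufflinks 2.2.1 on the Ensembl annotation of each species. Ferret gene lengths, which enter the values, were not used here. Symbols were matched in upper case, and the value with the highest species mean was used where a symbol had several. log2(FPKM + 1) was compared with limma 3.58.1 (R 4.3.3, empirical Bayes with a trend) for genes with a mean of at least 1 FPKM in either species. The fit was tested on simulated data. The genes, lists and tests were chosen with earlier results of these data known. Named genes were all 10 of the set and, of 40 further pathway genes, those called with the largest differences in each role and all further family members, proteases and inhibitors. Shares were planned over 5 binding-protein genes and were computed over the 4 with values in both species. Mouse positions are those of GENCODE M21 on GRCm38. Alternatives were a pseudocount of 0.1, no filter, rescaling each library to the mean sum, quantile normalization, summed rows of a symbol, the replicate number as a block, no trend, and each library left out. Read counts were not used here, so depth gives no interval. Some genes were not analysed here.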

Additional observations from a re-analysis of the deposited data

How the results depend on the processing

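The 9 species differences kept their direction and their side of the limits under each of the 11 other fits, in 99 of 99 cases, with Igfbp2 between -3.78 and -3.12 and Igf1r between 1.94 and 2.39. With the replicate block, Igf1r differed by 2.01 and no call of the 9 genes changed. Deviations of libraries with the same number had a correlation of 0.00995 over 10204 genes, so no pairing by number was seen. With 2 libraries per species, this value cannot exclude a pairing. The block moved the count of genes called higher from 1336 to 1342. Genes called higher over all genes rose to 2110 after quantile normalization. With Igfbp1 and Igfbp6 added to the sum, the difference in the Igfbp2 share was -51.6 percentage points. With a pseudocount of 0.1 the log2 ratio differences became 1.60 for Igf1r against Igf2r, 4.47 for Igf1r against Insr, 1.09 for Igf1 against Igf2 and -4.12 for ligands against binding proteins, since the smaller pseudocount weighs on low values less. Where a species was left with 1 library, it was assumed to vary like the other. Read counts were not used, which limits the values under 1 FPKM most, those of Igf1 and Igf2 in ferret astrocytes.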

Other observations

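Other secreted proteins share the amino-terminal domain of IGF-binding proteins, among them the CCN matrix proteins. A list of 11 such genes was chosen after the values were seen. Of the 9 that were tested, 5 were called lower and 1 higher in ferret astrocytes, beside 30.1% and 13.1% of all genes tested. The choice of the list makes these counts a description. Ccn4, Ccn5 and Htra3 passed the filter on low values through the mouse libraries alone, and Igflr1 through the ferret libraries alone. Ccn5 had 0.0497 and 0.035 FPKM in ferret and 22.9 and 24.2 FPKM in mouse astrocytes (log2 difference -4.56). Ccn2, a target of YAP and TGF-beta signalling, had 98.4 and 80.0 FPKM against 319 and 317 FPKM (log2 difference -1.83). Ccn4, Htra3 and Crim1 were called lower as well, with log2 differences of -2.20, -2.52 and -1.08, and the call of Crim1 was lost after rescaling (-0.71). Esm1, which encodes a proteoglycan of endothelial cells, was the gene called higher, with 14.0 and 16.0 FPKM in ferret and 1.11 and 1.36 FPKM in mouse astrocytes (log2 difference 2.84). Ccn1, Ccn3 and Kazald1 differed by -0.91, 0.27 and -0.59 and were not called, although Ccn1 was called lower without ferret astrocytes replicate 1 and Kazald1 with a pseudocount of 0.1. Igflr1, the gene of a receptor for IGF-like ligands outside the insulin family, had 2.74 and 2.68 FPKM in ferret and 0.000228 and 0.175 FPKM in mouse astrocytes (log2 difference 1.77).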
